A study of Mus musculus with 24 samples.

Results

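The genes described are the mouse replication-dependent histone genes, the clustered genes that carry a Hist1, Hist2, Hist3 or Hist4 name. They were taken by name and by protein-coding type from the authors' annotated gene table, which gave 62 of the 29716 genes in the count table. By histone type these were 6 genes of the linker histone H1, 17 of H2A, 15 of H2B, 11 of H3 and 13 of H4. By cluster, 51 carried a Hist1 name, 8 a Hist2 name, 2 a Hist3 name and 1 a Hist4 name.

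Replication-dependent histone genes make the bulk of the protein that packs newly copied DNA, and their transcription peaks in S phase. Their mRNAs are the known exception among animal mRNAs: most end in a conserved stem-loop in place of a poly(A) tail, and the stem-loop binding protein Slbp guides their 3′ end processing, export and decay. Some members also give a longer, polyadenylated transcript, known from cells that leave the cell cycle and differentiate. The libraries are labelled polyA RNA, so the levels given here are those of histone transcripts that entered such libraries, and the part of this step in the levels was not tested.

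The 24 libraries came from CD31+ cells of C57BL/6J embryos at E10.5, the age at which blood stem cells form in clusters on the wall of the aorta. An anti-human IgG control antibody or an antibody to Dll4, a ligand of the Notch receptors, was injected into the heart. The embryos then spent 5 h in myeloid long-term medium at 37 °C under 5% CO2. The medium held hydrocortisone at 10 µM, interleukin-3 at 10 ng/ml and the injected antibody at 5 µg/ml. After digestion with 0.1% collagenase, 3 populations were sorted for each antibody. These were Kit+ cells without CD45 (Kit+ CD45-), CD41+ cells without Kit or CD45 (Kit- CD41+ CD45-), and cells with both Kit and CD45 (Kit+ CD45+). Each of the 6 groups had 4 libraries, all made from cDNA amplified by long-distance PCR. The sources used here do not say how many embryos made a library or whether libraries of a group came from separate embryos, so p-values measure only the spread between these libraries, which may be technical.

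Library totals ran from 8718351 to 11379830 counts, and histone genes received 2279 to 11416 counts per library, from 53 to 58 of the 62 genes. The sorting markers followed the labels: mean Kit was 37.9 CPM (counts scaled to library size) in Kit+ CD45- IgG, 60.8 in Kit+ CD45+ IgG and 3.85 in Kit- CD41+ CD45- IgG libraries, and Ptprc, which encodes CD45, averaged 82.3 CPM in Kit+ CD45+ IgG and was at 0 in every Kit- CD41+ CD45- IgG library. Itga2b, which encodes CD41, averaged 539.8 CPM in Kit- CD41+ CD45-, 58.6 in Kit+ CD45- and 14.6 in Kit+ CD45+ IgG libraries, and Pecam1, which encodes CD31, averaged 67.2, 155.3 and 250.3 CPM in the same order. The populations also differed in other cell type markers. The summed level of 14 erythroid markers ran from 155000 to 947700 CPM in Kit+ CD45-, from 41350 to 161300 in Kit- CD41+ CD45- and from 145.8 to 304.5 in Kit+ CD45+ libraries, where the red cell anion exchanger Slc4a1 was at 0. The 3 anti-Dll4 libraries of replicate 1 stood apart by holding 1756 to 3067 counts of 4 Y-linked genes, against 0 to 15 in the other 21 libraries. They held 1 to 5 counts of the X-linked RNA Xist, against 1455 to 2705 in the other 21. Every IgG library was among those 21, so this difference in sex-linked transcripts fell only on the anti-Dll4 side. Results that depend on the 3 libraries are given without them as well. In these bulk libraries, fewer cells of a type and less RNA per cell cannot be told apart.

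The stem-loops of the members on which the results turn are shown first, since they are the element that sets these genes apart. Each line gives the DNA strand of the transcript from GENCODE M21 on build GRCm38 (mm10), with the 16 bases of the stem and loop in capitals and the bases that flank them in lower case.
Hist1h1c, chr13:23739507-23739532, + strand: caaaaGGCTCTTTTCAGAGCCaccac
Hist3h2a, chr11:58955167-58955192, + strand: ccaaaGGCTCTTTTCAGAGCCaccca
Hist1h2ac, chr13:23683472-23683497, - strand: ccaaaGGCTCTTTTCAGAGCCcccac
Hist1h2be, chr13:23585526-23585551, - strand: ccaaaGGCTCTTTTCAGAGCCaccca
Hist2h3c2, chr3:96238480-96238505, - strand: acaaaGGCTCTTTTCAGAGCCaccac
Hist1h1e, chr13:23621777-23621802, - strand: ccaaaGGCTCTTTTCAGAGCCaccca
Hist1h2ae, chr13:23570663-23570688, - strand: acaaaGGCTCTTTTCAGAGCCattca
Hist1h3c, chr13:23745042-23745067, - strand: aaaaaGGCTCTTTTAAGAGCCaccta
Hist1h4d, chr13:23581945-23581970, + strand: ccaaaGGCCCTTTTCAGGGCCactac
Hist1h4h, chr13:23531453-23531478, + strand: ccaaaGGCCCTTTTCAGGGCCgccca
Hist1h4i, chr13:22040961-22040986, - strand: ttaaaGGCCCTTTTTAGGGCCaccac
Hist2h4, chr3:96262934-96262959, - strand: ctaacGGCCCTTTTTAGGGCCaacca
The first 7 lines share the stem-loop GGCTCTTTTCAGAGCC, which was the commonest form and was found in 24 members. Hist1h4d and Hist1h4h carry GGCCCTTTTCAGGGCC, found in 7 members, and Hist1h3c carries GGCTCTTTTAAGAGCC, found in 6. Hist1h4i and Hist2h4 were the 2 members with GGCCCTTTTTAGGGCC.

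A stem-loop of this kind was found in 44 of the 62 members. The 18 without a match in the annotated transcript included Hist1h2bc, the member with the highest level, whose gene spans chr13:23684199-23692488 on the + strand with 736 exon bases, and also Hist1h1a and Hist2h2bb. Annotated gene ends differed in how far they lay past the stem-loop. In Hist1h4d the annotated gene ended 25 bases past the stem and loop in capitals, in Hist1h1e 27, in Hist1h2ac 28, in Hist1h3c 34 and in Hist1h4h 46. In Hist1h4i it ran on for 330 bases, in Hist2h3c2 for 377, in Hist1h1c for 840, in Hist2h4 for 1257, in Hist3h2a for 1643 and in Hist1h2be for 1789. In all, 12 members had 100 or more such bases and together summed to 173.1 CPM as a mean over the 24 libraries. The 32 members with a stem-loop and fewer bases past it summed to 124.0 CPM, and the 18 with no match to 177.5 CPM. Single genes made up much of the first and last of these sums, Hist1h1c with 94.6 CPM and Hist1h2bc with 134.7 CPM. The median level per kilobase of exon was 1.006 CPM, 4.066 CPM and 1.939 CPM in the same order of classes.

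The promoters of the 2 members with the most counts are shown because these genes carried the largest differences between populations. The window runs from 250 bases before to 50 bases after a gene's start, from RefSeq on build GRCm38.p6, with the letters CCAAT in capitals wherever either strand has them, and likewise those of the octamer ATTTGCAT and of the TATAAA box. Hist1h2bc had no window of its own in the table, but its start at 23684199 lies inside the window of Hist1h2ac, which is read from the opposite strand.
Hist1h1c, chr13:23738557-23738856, + strand: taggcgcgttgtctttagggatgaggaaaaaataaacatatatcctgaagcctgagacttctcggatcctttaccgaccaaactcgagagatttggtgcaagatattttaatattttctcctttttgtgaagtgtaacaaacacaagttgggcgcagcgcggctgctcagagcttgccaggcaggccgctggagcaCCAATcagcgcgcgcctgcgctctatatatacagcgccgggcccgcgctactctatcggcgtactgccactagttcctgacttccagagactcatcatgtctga
Hist1h2ac and start of Hist1h2bc, chr13:23683910-23684209, - strand: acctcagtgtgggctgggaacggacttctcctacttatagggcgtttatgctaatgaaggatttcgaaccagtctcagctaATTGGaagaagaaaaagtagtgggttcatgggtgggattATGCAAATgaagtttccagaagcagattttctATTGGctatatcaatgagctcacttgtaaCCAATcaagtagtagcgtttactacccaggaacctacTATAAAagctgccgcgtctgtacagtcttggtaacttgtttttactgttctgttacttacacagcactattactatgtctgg
The Hist1h1c window held 1 CCAAT match, and the Hist1h2ac window held 3 matches to CCAAT, 1 to TATAAA and 1 to ATTTGCAT. Among the 57 members with a window, CCAAT was in 84.21%, against 37.41% of all 32851 promoters of that length. It was in every H1, H2A, H2B and H3 window and in 3 of 12 H4 windows. TATAAA was in 57.89% of members and 13.62% of all promoters. ATTTGCAT, the letters of the octamer motif known from H2B promoters, was in 21.05% of members and 1.735% of all promoters, in 7 H2A and 5 H2B genes and in no H1, H3 or H4 window. These matches describe letters in a window and not bound sites, and the motifs do not overlap each other.

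Members of a histone type are near copies of each other, which limits how reads can be assigned. By the share of a gene's 50-base words that occur in no other gene, 16 members were under 20% unique, 22 were between 20% and 50%, and 24 were at 50% or more. The last class held 416.8 CPM of the summed mean level, against 49.56 and 8.265 CPM in the other two. Hist1h1c was 91.46% unique and Hist1h2bc 52.69%, while Hist1h3c was 37.95%, Hist1h2ac 33.72% and Hist2h2bb 0%. In the count table's annotation 19 members overlap another gene, including Hist3h2a, which lies whole within Trim17 on the same strand, and Hist2h2bb, which lies within a predicted gene on the same strand. Whether the authors' counting used strand is not given in the sources used here, so values of near copies and of overlapping genes are uncertain in their split.

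**Figure D1:**
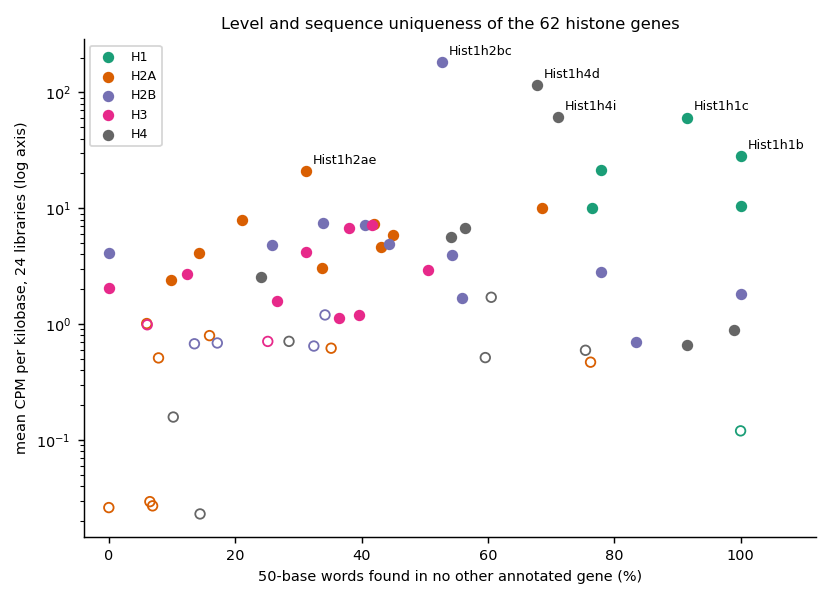
Mean level of each of the 62 histone genes over the 24 libraries in CPM per kilobase of exon (y axis, log scale) against the percentage of its 50-base words found in no other gene (x axis), with 1 point per gene coloured by histone type, filled where the gene passed the filter on low counts. Hist1h2bc, Hist1h4d, Hist1h4i and Hist1h1c lie highest, and all are at or above 50% unique words.

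Levels were uneven between members. All CPM values use TMM-scaled library sizes. Per kilobase of exon and averaged over all 24 libraries, the core histone gene Hist1h2bc stood first at 183.0 CPM per kb, followed by the H4 gene Hist1h4d at 114.8, Hist1h4i at 61.68 and the linker histone gene Hist1h1c at 60.64. Hist1h1b followed at 28.34, Hist1h1e at 21.56 and the H2A gene Hist1h2ae at 20.85 CPM per kb. The leading H3 gene, Hist1h3d, reached 7.196 CPM per kb. Of the 62 members, 45 were detected in all 24 libraries and 41 passed the filter on low counts: 5 of 6 H1, 9 of 17 H2A, 11 of 15 H2B, 9 of 11 H3 and 7 of 13 H4 genes. The 21 that did not pass had 2 to 153 counts each over all 24 libraries. Among them were Hist1h1t, the testis-type linker histone, with 19 counts, and 4 genes that reached no more than 3 counts in all, Hist1h2ao, Hist1h2ap, Hist2h2aa2 and Hist1h4n.

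Summed over all 62 members, histone RNA was highest in the Kit- CD41+ CD45- libraries. The sum was 839.6 ± 189.8 CPM there under IgG, 389.8 ± 93.5 in Kit+ CD45- and 222.1 ± 46.26 in Kit+ CD45+ libraries (mean ± SD, n = 4 each). Under anti-Dll4 the sums were 688.2 ± 115.6, 409.7 ± 145.9 and 298.2 ± 33.03 CPM in the same order. The 8 Kit- CD41+ CD45- libraries lay between 596.2 and 1011 CPM and the other 16 between 174.3 and 571.3 CPM, with no overlap. The TMM factors behind these values were 0.5246 to 1.104 in Kit+ CD45- and 1.199 to 1.37 in Kit+ CD45+ libraries. Unscaled, histone counts under anti-Dll4 were 2279 to 3418 and 3270 to 4203 per library in the same order. The anti-Dll4 order of the Kit+ populations thus depended on the scaling. Every Kit- CD41+ CD45- library held 5709 histone counts or more.

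Most of that excess lay in 2 genes. Hist1h2bc and Hist1h1c gave 61.19% to 70.56% of the histone sum in the Kit- CD41+ CD45- libraries and 17.95% to 37.22% in the others. Without them the sum was 282.8 ± 63.03 CPM in Kit+ CD45-, 253.7 ± 52.72 in Kit- CD41+ CD45- and 174.8 ± 40.52 in Kit+ CD45+ IgG libraries, and the ranges of the 3 populations overlapped. The anti-Dll4 sums without them were 300.7 ± 102.8, 247.8 ± 24.19 and 212.4 ± 34.89 CPM.

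By type under IgG, H2B summed to 359.7 ± 108.2 CPM in Kit- CD41+ CD45-, 95.2 ± 18.63 in Kit+ CD45- and 51.78 ± 7.951 in Kit+ CD45+ libraries, but 25.88, 28.3 and 24.01 CPM once Hist1h2bc was left out. H1 summed to 299.1 ± 62.04, 102.1 ± 26.66 and 62.27 ± 16.63 CPM, and to 46.97, 61.9 and 42.71 CPM without Hist1h1c. The other types had another order or a smaller spread. H4 had its lowest mean in Kit+ CD45+ libraries, at 57.39 ± 15.88 CPM, and stood at 125.2 ± 50.25 in Kit+ CD45- and 111.1 ± 16.12 in Kit- CD41+ CD45- libraries, with ranges that overlapped between Kit+ CD45- and each of the others. H3 stood at 20.82 ± 1.633 CPM in Kit+ CD45-, 15.24 ± 2.461 in Kit- CD41+ CD45- and 14.86 ± 3.447 in Kit+ CD45+ libraries, and H2A at 46.56 ± 9.734, 54.5 ± 13.65 and 35.81 ± 4.499 CPM. The sums are descriptions and were not tested.

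**Figure D2:**
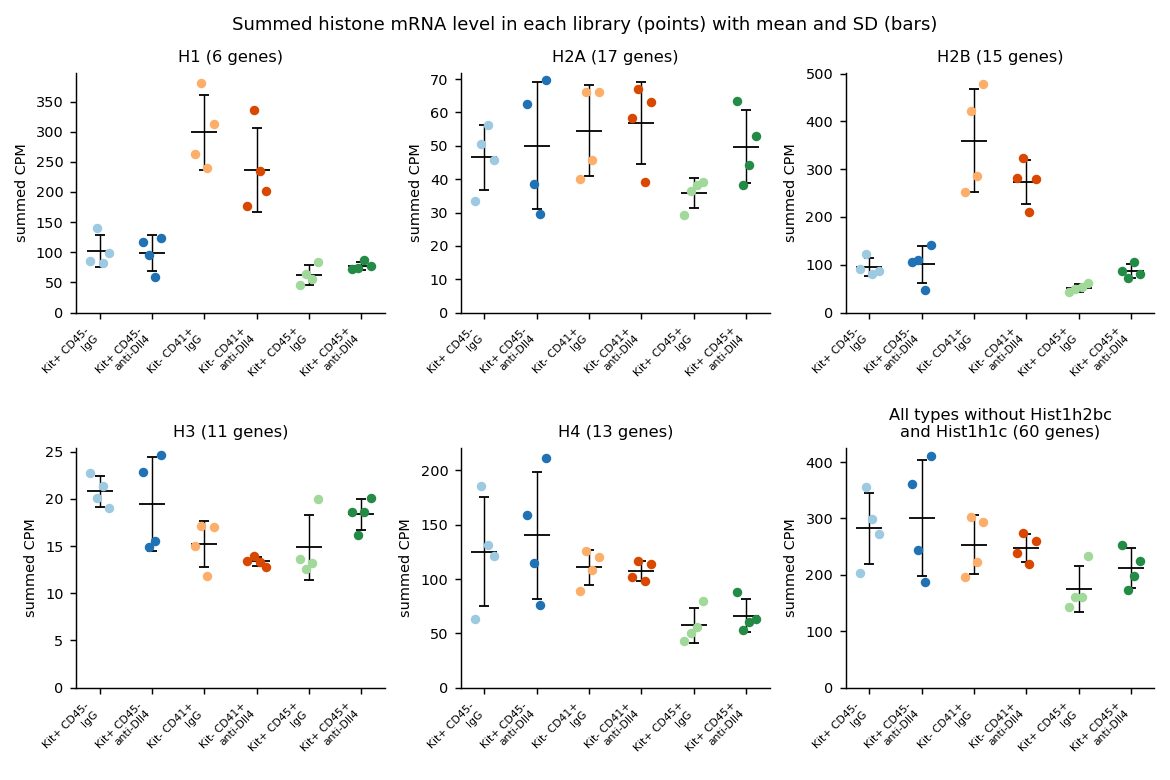
Summed CPM of the histone genes by type (1 panel per type, and 1 for all types without Hist1h2bc and Hist1h1c, y axes from 0) in each of the 24 libraries, grouped by population and antibody, with bars for the group mean and SD. The Kit- CD41+ CD45- libraries lie above all others for H1 and H2B, and the Kit+ CD45+ libraries lie low for H4.

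The largest differences between populations belonged to Hist1h1c, a linker histone gene known to be active in many tissues. Under IgG it stood at 233, 316, 205 and 255 CPM in the 4 Kit- CD41+ CD45- libraries. It stood at 34.2, 68.6, 19.7 and 38.1 CPM in the Kit+ CD45- libraries and at 11.2, 20.6, 21.1 and 25.4 CPM in the Kit+ CD45+ libraries. Every Kit- CD41+ CD45- library lay far above all 8 others. The log2 fold change of Kit+ CD45- against Kit- CD41+ CD45- was -2.65 (SE 0.36, adjusted p = 5.14e-06), that of Kit+ CD45+ against Kit- CD41+ CD45- was -3.69 (SE 0.38, adjusted p = 4.39e-08), both from edgeR's quasi-likelihood test with Benjamini-Hochberg adjustment over all 15618 genes tested, as are all adjusted p-values given here. Between the Kit+ populations the difference was smaller, at -1.04 (SE 0.35, adjusted p = 0.0394), with groups that overlapped, and it was lost in 5 of 8 fits that left out 1 library (Kit+ CD45+ IgG replicate 1, 2 or 3, or Kit+ CD45- IgG replicate 2 or 4, with an adjusted p of up to 0.220), and with no filter on low counts.

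The same order held under the antibody to Dll4. Hist1h1c was then at 132, 282, 190.4 and 155 CPM in Kit- CD41+ CD45-, 33.7, 37.3, 16.9 and 50.3 CPM in Kit+ CD45- and 18.6, 33.9, 44.8 and 27.6 CPM in Kit+ CD45+ libraries. The lowest Kit- CD41+ CD45- library again lay above every library of the other populations. Its log2 fold change was then -2.47 (SE 0.36, adjusted p = 1.16e-05) for Kit+ CD45- and -2.60 (SE 0.36, adjusted p = 3.46e-06) for Kit+ CD45+, each against Kit- CD41+ CD45-.

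Hist1h2bc, which encodes an H2B and lies next to Hist1h2ac, followed a like order. Its IgG levels were 229.8, 391, 266 and 448 CPM in Kit- CD41+ CD45-, 57.5, 94.9, 53.2 and 61.9 CPM in Kit+ CD45- and 20.6, 30.1, 34.5 and 25.9 CPM in Kit+ CD45+ libraries. The 3 populations did not overlap in any pair under IgG. In log2 terms the difference was -2.32 (SE 0.33, adjusted p = 8.32e-06) for Kit+ CD45- against Kit- CD41+ CD45-, -1.27 (SE 0.32, adjusted p = 0.00668) for Kit+ CD45+ against Kit+ CD45-, and -3.59 (SE 0.34, adjusted p = 1.75e-08) for Kit+ CD45+ against Kit- CD41+ CD45-. With anti-Dll4 the levels were 261, 299, 187 and 255 CPM in Kit- CD41+ CD45-, 72.7, 90.7, 24 and 110.4 CPM in Kit+ CD45- and 56.5, 47, 72.8 and 42 CPM in Kit+ CD45+ libraries. The 2 comparisons with Kit- CD41+ CD45- held, at -1.76 (SE 0.32, adjusted p = 0.000179) and -2.20 (SE 0.32, adjusted p = 8.78e-06), while the Kit+ populations overlapped and differed with a log2 fold change of -0.44 (SE 0.31, adjusted p = 0.317).

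Other members were higher in Kit- CD41+ CD45- cells as well. The H2A gene Hist3h2a stood at 23.9, 41.4, 24.1 and 38 CPM in Kit- CD41+ CD45-, 9.68, 15, 17.3 and 11.7 CPM in Kit+ CD45- and 14.6, 17, 19.95 and 14.3 CPM in Kit+ CD45+ IgG libraries. The Kit- CD41+ CD45- libraries lay above the rest. Its log2 fold change was -1.25 (SE 0.27, adjusted p = 0.000963) for Kit+ CD45- and -0.95 (SE 0.26, adjusted p = 0.00588) for Kit+ CD45+. Under anti-Dll4 its levels were 30.1, 39, 17.9 and 36.8 CPM in Kit- CD41+ CD45-, 13.3, 10.2, 8.9 and 19 CPM in Kit+ CD45- and 27.8, 21, 21.7 and 27 CPM in Kit+ CD45+ libraries, and it was lower in Kit+ CD45- than in Kit- CD41+ CD45- with a log2 fold change of -1.29 (SE 0.27, adjusted p = 0.000744), and 1 library of each population lay within the other's range. It was higher in Kit+ CD45+ than in Kit+ CD45- under anti-Dll4, at 0.94 (SE 0.27, adjusted p = 0.01), a call that reached an adjusted p of 0.0539 without the 3 Y-linked libraries. As Hist3h2a lies within Trim17, its counts can hold reads of both genes.

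Among H4 genes, Hist1h4h went with Kit- CD41+ CD45- cells. It was at 7.53, 3.9, 3.61 and 5.99 CPM there, 1.66, 0.82, 1.12 and 1.26 CPM in Kit+ CD45- and 0.798, 1.14, 1.22 and 1.61 CPM in Kit+ CD45+ IgG libraries, without overlap between the first group and the others. The log2 fold changes were -2.09 (SE 0.46, adjusted p = 0.00132) and -2.14 (SE 0.45, adjusted p = 0.000625). The anti-Dll4 levels were 3.62, 8.56, 5.43 and 2.34 CPM in Kit- CD41+ CD45-, 1.5, 1.39, 1.2 and 3.72 CPM in Kit+ CD45- and 1.96, 0.852, 1.55 and 1.05 CPM in Kit+ CD45+ libraries. There the Kit+ CD45+ difference from Kit- CD41+ CD45- was -1.88 (SE 0.45, adjusted p = 0.00191), and that of Kit+ CD45- was -1.39 (SE 0.45, adjusted p = 0.0218), which was lost without Kit+ CD45- anti-Dll4 replicate 1, 2 or 3 or Kit- CD41+ CD45- anti-Dll4 replicate 2 and without the 3 Y-linked libraries (adjusted p up to 0.121). That Kit+ CD45- call was also lost with the replicate number within each antibody as a block.

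Hist1h2ac, the H2A gene that faces Hist1h2bc across their shared start region, was at 2.14, 4.34, 1.3 and 3.77 CPM in Kit- CD41+ CD45-, 1.48, 1.09, 1.23 and 0.881 CPM in Kit+ CD45- and 0.732, 0.984, 0.457 and 0.896 CPM in Kit+ CD45+ IgG libraries. It was called lower in Kit+ CD45+ than in Kit- CD41+ CD45- under IgG, at -1.90 (SE 0.50, adjusted p = 0.00405), with no overlap, and missed the threshold for Kit+ CD45-, at -1.29 (SE 0.49, adjusted p = 0.0528). Under anti-Dll4 it was at 1.91, 2.72, 2.61 and 1.45 CPM in Kit- CD41+ CD45-, 1.5, 0.378, 0.4 and 0.875 CPM in Kit+ CD45- and 0.931, 0.697, 1.46 and 0.772 CPM in Kit+ CD45+ libraries. The Kit+ CD45- difference was then -1.47 (SE 0.51, adjusted p = 0.0321), lost without replicate 2 or 3 of either population (adjusted p up to 0.0998), with upper-quartile scaling and with no filter on low counts. Per kilobase of exon Hist1h2ac averaged 3.064 CPM over the 24 libraries and Hist1h2bc 183.0 CPM.

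The H2B gene Hist1h2be was at 1.78, 0.126, 1.4 and 1.75 CPM in Kit+ CD45- anti-Dll4 libraries, below all Kit- CD41+ CD45- anti-Dll4 libraries at 2.51, 4.13, 4.39 and 2.45 CPM and all Kit+ CD45+ anti-Dll4 libraries at 2.42, 5.58, 1.98 and 3.51 CPM. These differences were -1.43 (SE 0.50, adjusted p = 0.0326) for Kit+ CD45- against Kit- CD41+ CD45- and 1.44 (SE 0.50, adjusted p = 0.0324) for Kit+ CD45+ against Kit+ CD45-. Both calls were lost without Kit+ CD45- anti-Dll4 replicate 2, the library at 0.126 CPM, and both were lost with upper-quartile scaling and with no filter on low counts. Both were lost as well with the replicate number within each antibody as a block, and the second with the replicate number alone as a block. The first was also lost without Kit+ CD45- replicate 3 or Kit- CD41+ CD45- replicate 2 or 3 (adjusted p up to 0.0802), and the second without Kit+ CD45+ replicate 2 or 4 (up to 0.134). Its IgG levels were 4.19, 4.78, 3.11 and 5.88 CPM in Kit- CD41+ CD45-, 3.97, 1.78, 1.79 and 2.14 CPM in Kit+ CD45- and 2.59, 3.86, 2.97 and 4.93 CPM in Kit+ CD45+ libraries, with no comparison called. The H3 gene Hist2h3c2 was called once, lower in Kit+ CD45- at 0.738, 0.547, 0.112 and 0 CPM than in Kit- CD41+ CD45- IgG libraries at 1.97, 2.57, 1.8 and 0.999 CPM, with a log2 fold change of -2.33 (SE 0.78, adjusted p = 0.0278). It was lost without Kit- CD41+ CD45- IgG replicate 1 or 2 or Kit+ CD45- IgG replicate 3 or 4 (adjusted p up to 0.0787).

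The Kit- CD41+ CD45- libraries were also high in megakaryocyte and platelet markers. All 15 such markers were called lower in Kit+ CD45- than in Kit- CD41+ CD45- under IgG, and their summed level ran from 24100 to 30820 CPM in Kit- CD41+ CD45- IgG, 961.1 to 4135 in Kit+ CD45- IgG and 146.2 to 428.1 CPM in Kit+ CD45+ IgG libraries. None of them was at 0 in all libraries of any group, and the list holds Itga2b, which encodes the sorted marker CD41. Their part in the histone differences was not tested.

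A second set of members was higher in Kit+ CD45- cells or lower in Kit+ CD45+ cells. Hist1h4i, an H4 gene, was at 13.8, 15.9, 23 and 25.2 CPM in Kit+ CD45+, 20.9, 96.1, 55.5 and 54.1 CPM in Kit+ CD45- and 44.8, 55, 59.5 and 57.3 CPM in Kit- CD41+ CD45- IgG libraries. The Kit+ CD45+ libraries lay below every Kit- CD41+ CD45- library, and overlapped Kit+ CD45- only through its replicate 1. The log2 fold change of Kit+ CD45+ was -1.54 (SE 0.33, adjusted p = 0.00191) against Kit+ CD45- and -1.48 (SE 0.33, adjusted p = 0.00116) against Kit- CD41+ CD45-. With anti-Dll4 its levels were 29.9, 19.5, 19.7 and 25.3 CPM in Kit+ CD45+, 66.4, 55.9, 28.7 and 96.6 CPM in Kit+ CD45- and 49.6, 56.5, 49.3 and 57.6 CPM in Kit- CD41+ CD45- libraries, and both differences remained called, at -1.38 (SE 0.33, adjusted p = 0.00307) and -1.17 (SE 0.33, adjusted p = 0.00709).

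Hist1h4d, the H4 gene with the highest level, ranged more within the Kit+ CD45- group. Its IgG levels were 31.2, 79.8, 65.9 and 53.1 CPM in Kit+ CD45-, 30.7, 51.9, 38.1 and 48.7 CPM in Kit- CD41+ CD45- and 22, 27.9, 27.1 and 42.1 CPM in Kit+ CD45+ libraries. The anti-Dll4 levels were 76.6, 46.2, 38.3 and 97.5 CPM in Kit+ CD45-, 42.9, 44.3, 35.6 and 47.3 CPM in Kit- CD41+ CD45- and 49, 25.9, 31.7 and 28.5 CPM in Kit+ CD45+ libraries. The groups overlapped under both antibodies. It was called lower in Kit+ CD45+ than in Kit+ CD45- under IgG, at -0.95 (SE 0.29, adjusted p = 0.0242), and under anti-Dll4, at -0.93 (SE 0.29, adjusted p = 0.0185). The first call was lost without Kit+ CD45+ IgG replicate 1, 2 or 3 or Kit+ CD45- IgG replicate 2 or 3 (adjusted p up to 0.102), and the second without replicate 1 or 4 of Kit+ CD45- or replicate 2 or 4 of Kit+ CD45+ (up to 0.104).

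The H3 gene Hist1h3c was the member most often called in favour of Kit+ CD45- cells. It stood at 2.49, 6.42, 5.38 and 7.05 CPM there, 2.22, 2.21, 1.5 and 3.22 CPM in Kit- CD41+ CD45- and 2.33, 2.19, 2.89 and 1.52 CPM in Kit+ CD45+ IgG libraries, with only Kit+ CD45- replicate 1 within the range of the others. It was higher in Kit+ CD45- than in Kit- CD41+ CD45- with a log2 fold change of 1.21 (SE 0.35, adjusted p = 0.0111) and lower in Kit+ CD45+ than in Kit+ CD45- with a log2 fold change of -1.24 (SE 0.35, adjusted p = 0.0134). Under anti-Dll4, at 6.01, 4.91, 3.3 and 7.21 CPM in Kit+ CD45-, 2.01, 2.22, 2.72 and 2 CPM in Kit- CD41+ CD45- and 2.61, 2.32, 1.89 and 2.74 CPM in Kit+ CD45+ libraries, Kit+ CD45- lay above both other populations with no overlap. The log2 fold changes were 1.25 (SE 0.35, adjusted p = 0.00923) and -1.15 (SE 0.35, adjusted p = 0.0153). Both anti-Dll4 calls were lost without the 3 Y-linked libraries, with an adjusted p of 0.0710 for the first. The comparison with Kit+ CD45+ was also lost without Kit+ CD45- replicate 4, at an adjusted p of 0.0505 under IgG and 0.0596 under anti-Dll4.

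Linker histone genes other than Hist1h1c were higher in Kit+ CD45- cells where they were called. Hist1h1e was at 10.2, 27.5, 22.5 and 18.4 CPM in Kit+ CD45-, 9.07, 18.5, 12.3 and 17 CPM in Kit- CD41+ CD45- and 7.85, 11.7, 10.7 and 15 CPM in Kit+ CD45+ IgG libraries. Its anti-Dll4 levels were 24.7, 21.3, 16.3 and 30.4 CPM in Kit+ CD45-, 15.8, 19.1, 14.1 and 17.3 CPM in Kit- CD41+ CD45- and 11.7, 11.1, 10.4 and 14.1 CPM in Kit+ CD45+ libraries, and every Kit+ CD45- library then lay above every Kit+ CD45+ library. The log2 fold change of Kit+ CD45+ against Kit+ CD45- was -0.96 (SE 0.27, adjusted p = 0.0102) under anti-Dll4 and -0.80 (SE 0.27, adjusted p = 0.0426) under IgG. The IgG groups overlapped, and that call was lost without Kit+ CD45+ replicate 1, 2 or 3 or Kit+ CD45- replicate 2, 3 or 4 (adjusted p up to 0.172) and with no filter on low counts.

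The linker histone gene Hist1h1a was at 7.65, 13, 7.29 and 11.1 CPM in Kit+ CD45-, 4.02, 9.12, 4.31 and 6.88 CPM in Kit- CD41+ CD45- and 4.46, 4.84, 3.58 and 8.07 CPM in Kit+ CD45+ IgG libraries. Its anti-Dll4 levels were 12.6, 8.82, 6 and 9.84 CPM in Kit+ CD45-, 4.62, 4.84, 5.95 and 5 CPM in Kit- CD41+ CD45- and 6.61, 4.57, 4.13 and 4.56 CPM in Kit+ CD45+ libraries. Kit+ CD45- lay above Kit- CD41+ CD45- without overlap under anti-Dll4, at 0.86 (SE 0.31, adjusted p = 0.0413). Kit+ CD45+ was called lower than Kit+ CD45- under IgG, at -0.90 (SE 0.31, adjusted p = 0.0453), and under anti-Dll4, at -0.90 (SE 0.31, adjusted p = 0.033), with groups that overlapped. The first was lost without any 1 of 7 of the 8 libraries, all but Kit+ CD45- replicate 3 (adjusted p up to 0.242), the second without Kit+ CD45+ replicate 1, 2 or 3 or Kit+ CD45- replicate 2 or 4 (up to 0.150), and the third without Kit+ CD45- replicate 1 or 4 or Kit+ CD45+ replicate 2, 3 or 4 (up to 0.111). The anti-Dll4 calls were also lost without the 3 Y-linked libraries, and all 3 with no filter on low counts.

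The other tested H1 genes were called in no comparison. Hist1h1b ran from 12.9 to 27.9 CPM in the IgG libraries and from 13.7 to 31.4 CPM in the anti-Dll4 libraries. Hist1h1d averaged 7.456 CPM over the 24 libraries and was at 11.2, 8.75, 8.18 and 10.3 CPM in Kit+ CD45-, 3.59, 8.32, 2.9 and 7.77 CPM in Kit- CD41+ CD45- and 6.19, 6.43, 4.34 and 12 CPM in Kit+ CD45+ IgG libraries, with overlap in every pair.

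In the Hist2 cluster, 2 members were called higher in Kit+ CD45- cells under anti-Dll4 and not under IgG. The test of a difference of the antibody effect between the populations gave an adjusted p of 1 for both. Hist2h2bb was at 1.64, 4.28, 2.3 and 3.94 CPM in Kit+ CD45-, 0.502, 0.907, 1.25 and 0.556 CPM in Kit- CD41+ CD45- and 1.12, 1.01, 1.2 and 1.26 CPM in Kit+ CD45+ anti-Dll4 libraries. Its log2 differences were 1.89 (SE 0.47, adjusted p = 0.0037) for Kit+ CD45- against Kit- CD41+ CD45- and -1.39 (SE 0.46, adjusted p = 0.0252) for Kit+ CD45+ against Kit+ CD45-. The second was lost without Kit+ CD45- replicate 2 or 4 or Kit+ CD45+ replicate 2 (adjusted p up to 0.0837) and with no filter on low counts. Under IgG Hist2h2bb was at 2.95, 2.6, 1.12 and 2.01 CPM in Kit+ CD45-, 0.941, 0.708, 0.902 and 2 CPM in Kit- CD41+ CD45- and 1.06, 1.06, 0.914 and 1.61 CPM in Kit+ CD45+ libraries. With no 50-base word of its own, its counts cannot be told apart from those of the gene it lies in.

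Hist2h4 was at 2.6, 1.39, 2 and 4.15 CPM in Kit+ CD45-, 0.904, 0.806, 0.627 and 0.445 CPM in Kit- CD41+ CD45- and 0.838, 0.155, 1.38 and 0.631 CPM in Kit+ CD45+ anti-Dll4 libraries. Kit+ CD45- lay above the other populations, with log2 fold changes of 1.83 (SE 0.62, adjusted p = 0.0291) and -1.73 (SE 0.61, adjusted p = 0.0369). The first was lost without Kit+ CD45- replicate 1 or 4 or Kit- CD41+ CD45- replicate 2, 3 or 4 (adjusted p up to 0.101), the second without Kit+ CD45- replicate 1 or 4 or Kit+ CD45+ replicate 1, 2 or 4 (up to 0.127), and both without the 3 Y-linked libraries or the filter on low counts. With the replicate number within each antibody as a block the first was also lost, and with the replicate number alone as a block the second. Its IgG levels were 1.29, 0.82, 1.12 and 2.64 CPM in Kit+ CD45-, 1.8, 4.69, 0.601 and 1.55 CPM in Kit- CD41+ CD45- and 1.46, 0.984, 0.99 and 0.896 CPM in Kit+ CD45+ libraries, and the groups overlapped.

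The remaining named core histone genes differed less. Hist1h2ae, the H2A gene with the highest level per length, was called in no comparison. Its IgG levels were 7.29, 11.9, 14.8 and 12 CPM in Kit+ CD45-, 5.13, 7.88, 7.81 and 8.99 CPM in Kit- CD41+ CD45- and 3.99, 8.4, 6.93 and 7.62 CPM in Kit+ CD45+, and its anti-Dll4 levels were 16.4, 10.7, 7.6 and 17.5 CPM in Kit+ CD45-, 12.3, 9.77, 7.1 and 10.6 CPM in Kit- CD41+ CD45- and 12.1, 6.04, 7.74 and 9.68 CPM in Kit+ CD45+ libraries. Hist1h3d, the H3 gene with the highest level per length, was also called in none. It was at 8.58, 2.46, 4.48 and 3.15 CPM in Kit+ CD45-, 4.88, 4.6, 2.7 and 4.66 CPM in Kit- CD41+ CD45- and 5.06, 3.48, 4.72 and 5.02 CPM in Kit+ CD45+ libraries under IgG and 3.83, 2.64, 3 and 3.94 CPM in Kit+ CD45-, 3.31, 3.63, 2.3 and 2 CPM in Kit- CD41+ CD45- and 5.22, 4.34, 3.53 and 5.19 CPM in Kit+ CD45+ libraries under anti-Dll4. For both genes the populations overlapped in most pairs. Hist1h2ag was called once, higher in Kit+ CD45- at 3.78, 5.6, 5.94 and 5.29 CPM than in Kit- CD41+ CD45- IgG libraries at 1.71, 1.95, 3.11 and 3.22 CPM, with a log2 fold change of 1.05 (SE 0.35, adjusted p = 0.0284). That call was lost in 5 of 8 fits, those without Kit- CD41+ CD45- replicate 1 or 2 or Kit+ CD45- replicate 2, 3 or 4 (adjusted p up to 0.0969), and with no filter on low counts. Hist1h2bg, Hist1h2bj, Hist1h3g and Hist1h4c, next in level per length within their types, averaged 3.574, 3.348, 1.776 and 2.664 CPM over the 24 libraries and were called in no comparison.

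**Figure D3:**
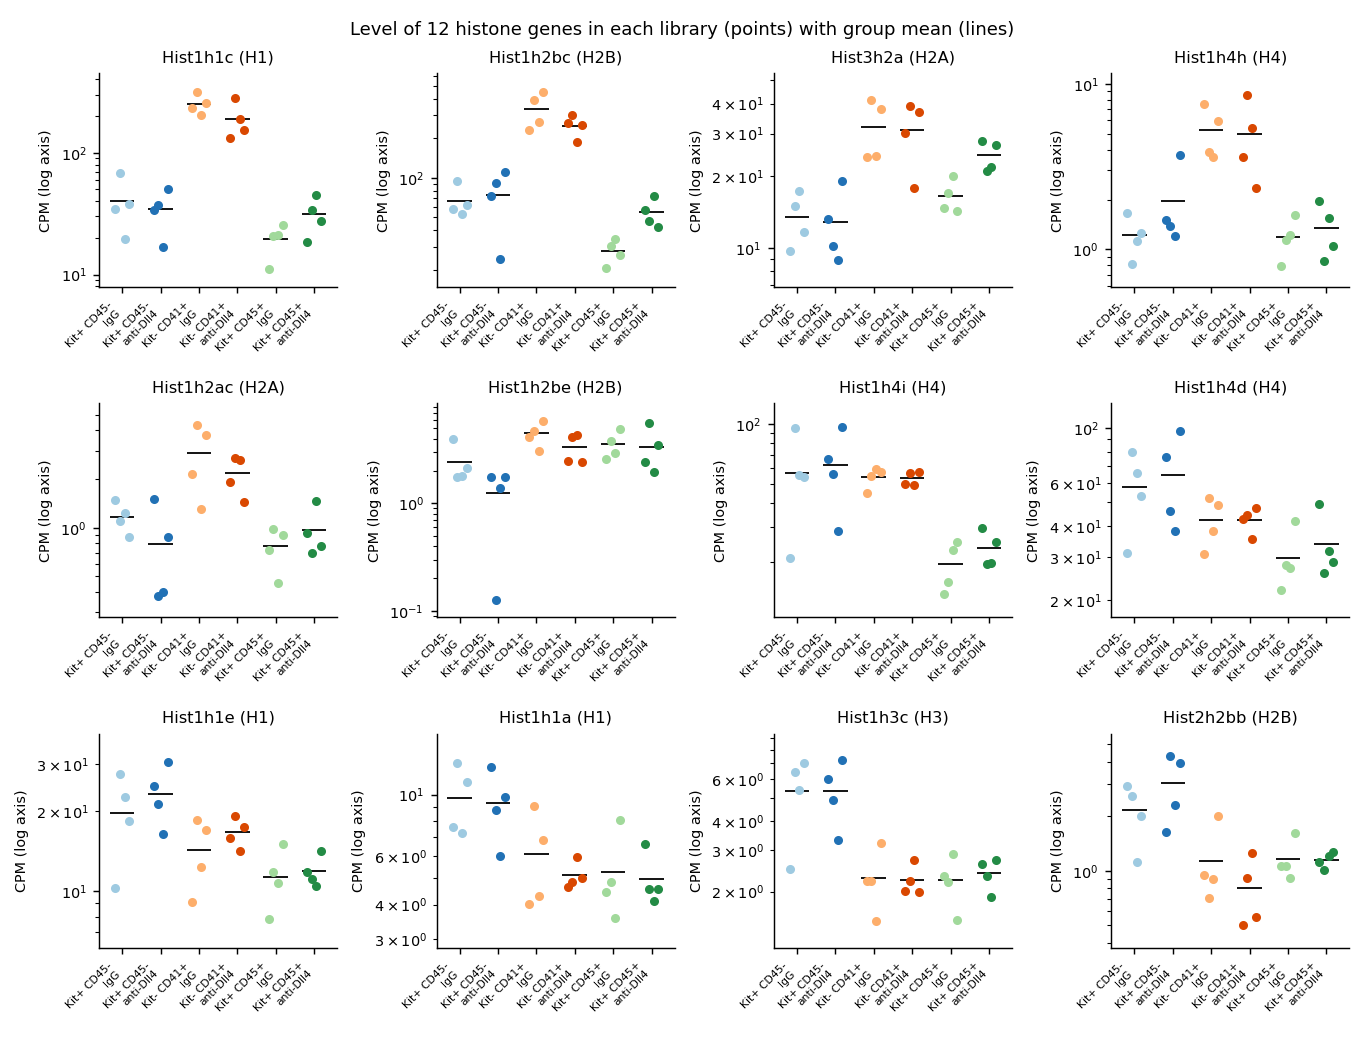
CPM in each of the 24 libraries (points, log scale) for 12 of the histone genes called in the population comparisons, with 1 panel per gene, lines for group means, and the Kit- CD41+ CD45- population shortened to Kit- CD41+ on the axis. Hist1h1c and Hist1h2bc lie highest in all 8 Kit- CD41+ CD45- libraries, Hist1h3c has its highest means in Kit+ CD45- libraries, and Hist1h4i has its lowest means in Kit+ CD45+ libraries.

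The calls can be counted by comparison, each read beside the share of all 15618 tested genes called in the same direction. For Kit+ CD45- against Kit- CD41+ CD45- under IgG, 2 of 41 members were higher and 5 lower, where 14.0% of all genes were higher and 13.8% lower. For Kit+ CD45+ against Kit+ CD45- under IgG, 7 were called, each lower, where 10.0% of all genes were higher and 9.18% lower. Against Kit- CD41+ CD45-, 6 were called in Kit+ CD45+ under IgG, each lower, where 19.7% of all genes were higher and 17.5% lower. The 7 lower calls of 41 were thus above the 9.18% of all genes, and the 6 of 41 below the 17.5%. In these 2 comparisons no member joined the higher calls.

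Under anti-Dll4 the counts were 4 higher and 6 lower in Kit+ CD45- against Kit- CD41+ CD45-, where 14.7% and 15.2% of all genes were called. They were 2 higher and 7 lower in Kit+ CD45+ against Kit+ CD45-, where 16.6% and 12.6% of all genes were called. With Kit- CD41+ CD45- as the reference 4 were called in Kit+ CD45+, each lower, where 20.4% of all genes were higher and 17.3% lower. With upper-quartile scaling the split in Kit+ CD45- against Kit- CD41+ CD45- under anti-Dll4 became 6 higher and 4 lower, and the share of higher genes among all called genes there went from 49.04% to 61.31%. For Kit+ CD45+ against Kit+ CD45- that share went from 52.17% to 41.84% under IgG and from 56.80% to 46.24% under anti-Dll4. Groups of 4 that did not overlap were also counted. Under IgG they made 4 members higher and 5 lower in Kit+ CD45- against Kit- CD41+ CD45- (13.1% and 16.1% of all genes), 5 lower in Kit+ CD45+ against Kit+ CD45- (10.9% of all genes higher and 8.79% lower), and 1 higher and 7 lower in Kit+ CD45+ against Kit- CD41+ CD45- (19.4% and 19.0%). Under anti-Dll4 they made 7 higher and 3 lower (12.6% and 16.0%), 3 higher and 4 lower (15.1% and 9.36%), and 1 higher and 4 lower (19.5% and 17.6%) in the same order.

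In all, 15 of the 41 tested members were called at least once: 3 H1, 3 H2A, 3 H2B, 2 H3 and 4 H4 genes. The share of all genes called at least once was not counted. Single population comparisons called 19.2% to 37.6% of all genes, so that share is at least 37.6%. The 15 of 41 members are thus not above it. Single libraries moved some of these counts. The 7 calls of Kit+ CD45+ against Kit+ CD45- under IgG became 3 without Kit+ CD45+ replicate 1, 2 or 3 or Kit+ CD45- replicate 2 or 4. The 10 calls of Kit+ CD45- against Kit- CD41+ CD45- under anti-Dll4 became 6 without Kit+ CD45- replicate 2, 5 without Kit- CD41+ CD45- replicate 2 and 6 without its replicate 3. The 9 calls of Kit+ CD45+ against Kit+ CD45- under anti-Dll4 became 4 without Kit+ CD45+ replicate 2 or Kit+ CD45- replicate 4, and 5 without Kit+ CD45+ replicate 4 or without the 3 Y-linked libraries.

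Across the 41 tested members, most log2 fold changes lay on 1 side in some comparisons although few were called. The median was 0.44 in Kit+ CD45- against Kit- CD41+ CD45- under IgG, with 29 of 41 above 0, and 0.52 under anti-Dll4, with 31 above 0, beside medians of 0.06 and 0.07 over all genes. It was -0.67 in Kit+ CD45+ against Kit+ CD45- under IgG, with 7 of 41 above 0, beside 0.04 over all genes, and under anti-Dll4 it was -0.23, with 15 above 0, beside 0.10. For Kit+ CD45+ against Kit- CD41+ CD45- it was -0.15 under IgG and 0.11 under anti-Dll4, beside 0.05 and 0.06. Upper-quartile scaling moved the median of all genes to 0.16 and 0.21 in Kit+ CD45- against Kit- CD41+ CD45- under IgG and anti-Dll4, and to -0.01 in Kit+ CD45+ against Kit+ CD45- under anti-Dll4. The members above the median of all genes numbered 28, 31 and 13 there under both scalings. Without the 3 Y-linked libraries the member median in Kit+ CD45- against Kit- CD41+ CD45- under anti-Dll4 was 0.26, and that in Kit+ CD45+ against Kit- CD41+ CD45- was 0.01 beside 0.03 over all genes. The comparisons share libraries, so these medians are not independent of each other. By type, in Kit+ CD45+ against Kit+ CD45- under IgG, 0 of 5 H1, 1 of 9 H2A, 3 of 11 H2B, 2 of 9 H3 and 1 of 7 H4 genes lay above 0.

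**Figure D4:**
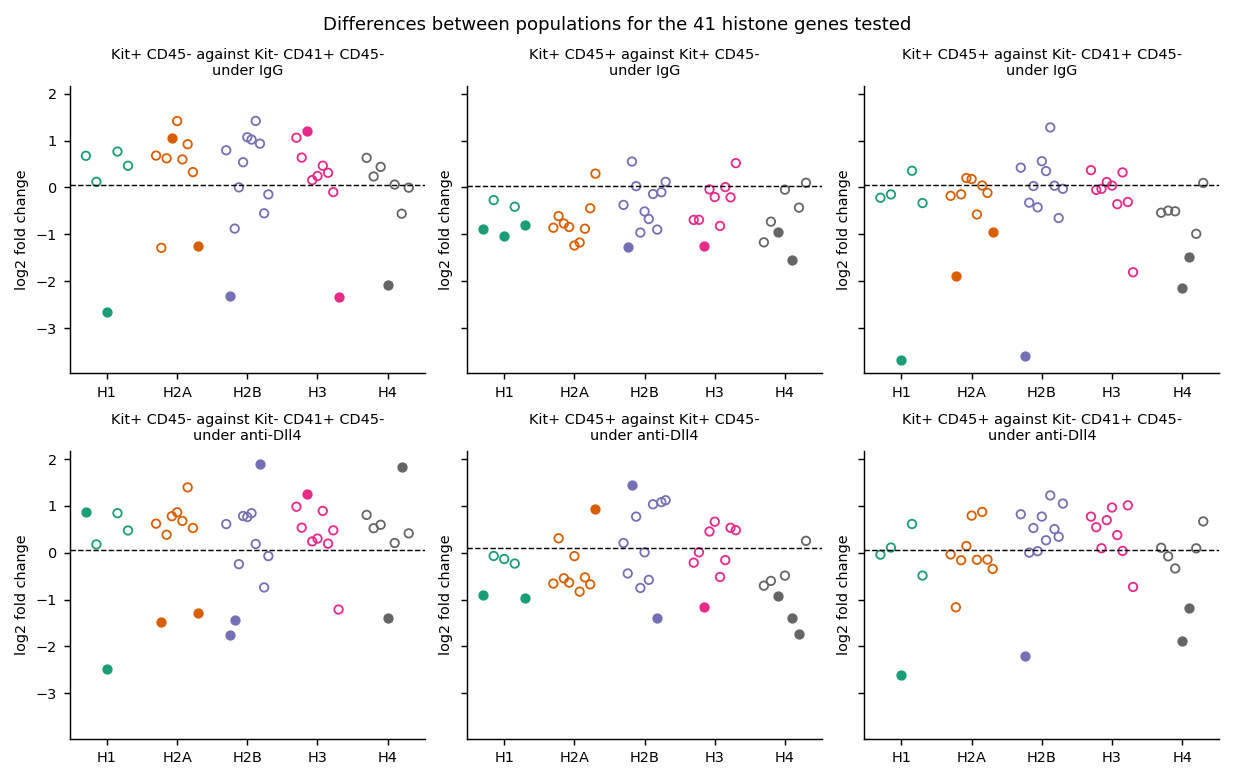
Log2 fold change of each of the 41 tested histone genes in the 6 comparisons between populations (1 panel per comparison), by histone type. Filled points have an adjusted p under 0.05 and the dashed line is the median of all 15618 genes. Hist1h1c is the lowest point wherever Kit- CD41+ CD45- is the reference, and most members lie below 0 in Kit+ CD45+ against Kit+ CD45- under IgG.

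The antibody to Dll4 gave no called change in any histone gene. edgeR called 0 of 41 members in Kit+ CD45-, in Kit- CD41+ CD45- and in Kit+ CD45+ cells, 0 for the mean effect over the 3 populations and 0 for a difference of the effect between populations. Of all genes it called 0%, 0%, 0.00640%, 0% and 0.0256%. DESeq2 also called 0 members in each of the 5. Of all genes it gave an adjusted p, it called 82 of 11274, 2 of 29679, 14 of 23917, 31 of 17591 and 25 of 18165 in that order. At an unadjusted p under 0.05 there were 0, 1, 3, 1 and 2 members in that order, where 11.1%, 2.79%, 2.90%, 8.39% and 4.04% of all genes passed.

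The values in Kit+ CD45+ cells leaned towards the anti-Dll4 libraries. There 34 of 41 members had a log2 fold change above 0, with a median of 0.34, beside 49.7% of all genes above 0 and a median of 0. By type these were 4 of 5 H1, 8 of 9 H2A, 9 of 11 H2B, 7 of 9 H3 and 6 of 7 H4 genes. Without the 3 Y-linked libraries 33 of 41 were above 0 with a median of 0.28. In Kit+ CD45- cells the median was 0.09 with 24 of 41 above 0, and it turned to -0.07 with 18 above 0 without the 3 Y-linked libraries. In Kit- CD41+ CD45- cells it was -0.07 with 16 above 0.

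For 6 of 41 members every Kit+ CD45+ anti-Dll4 library lay above every IgG library, where 0.960% of all genes did so, and for no tested member did they all lie below, where 0.839% did. Hist1h2bc was at 20.6, 30.1, 34.5 and 25.9 CPM under IgG and 56.5, 47, 72.8 and 42 CPM under anti-Dll4, a log2 fold change of 0.97 (SE 0.32, unadjusted p = 0.00537, adjusted p = 1). Hist1h2bg was at 2.06, 3.25, 2.89 and 4.03 CPM and 5.87, 4.42, 6.28 and 5.19 CPM, a log2 fold change of 0.83 (SE 0.35, adjusted p = 1). Hist3h2a was at 14.6, 17, 19.95 and 14.3 CPM and 27.8, 21, 21.7 and 27 CPM, a log2 fold change of 0.57 (SE 0.26, adjusted p = 1). The other 3 were Hist2h3c2, Hist2h3b and Hist1h2bp, with log2 fold changes of 1.24, 1.02 and 0.82 and adjusted p = 1. None of the 6 passed the test. The megakaryocyte and platelet markers stood higher in the same libraries, with 15 of 15 log2 fold changes above 0, 1 called, and summed levels of 477.4 to 667.4 CPM under anti-Dll4 against 146.2 to 428.1 CPM under IgG. Their part in the histone values was not tested.

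In the other populations the lowest unadjusted values belonged to Hist1h2be and Hist2h4. In Kit+ CD45- cells every anti-Dll4 library of Hist1h2be lay below every IgG library, with a log2 fold change of -0.97 (SE 0.50, adjusted p = 0.47). The groups nearly touched, at 1.776 CPM in anti-Dll4 replicate 1 and 1.777 CPM in IgG replicate 2, with 13 counts each. Of all genes 2.23% lay wholly below, while no member lay wholly above, as 0.916% of all genes did. In Kit- CD41+ CD45- cells Hist2h4 was at 1.8, 4.69, 0.601 and 1.55 CPM under IgG and 0.904, 0.806, 0.627 and 0.445 CPM under anti-Dll4, with groups that overlapped and a log2 fold change of -1.62 (SE 0.62, adjusted p = 1). No tested member was free of overlap there, where 1.07% of all genes lay wholly higher and 1.15% wholly lower.

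**Figure D5:**
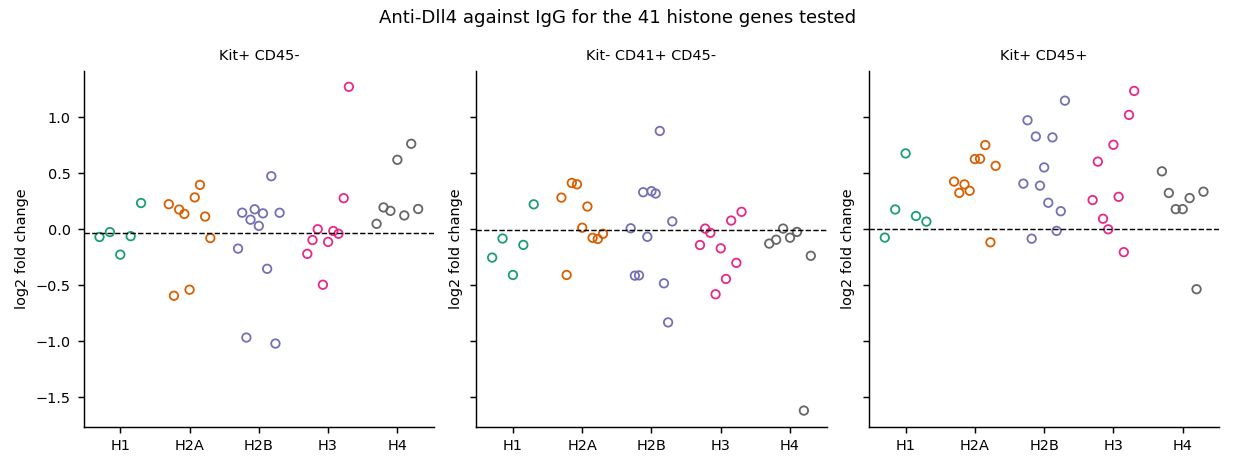
Log2 fold change of anti-Dll4 against IgG for each of the 41 tested histone genes in the 3 populations (1 panel each), by histone type, with the dashed line at the median of all 15618 genes. No point has an adjusted p under 0.05, and 34 of 41 points lie above 0 in Kit+ CD45+ cells.

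Other genes that serve histone synthesis were set beside the members, and their counts are likewise to be read beside the shares of all genes called. In the list of 31 genes for histone mRNA transcription and 3′ end processing, 3 were called, each higher in Kit+ CD45- than in Kit- CD41+ CD45- cells, under IgG (median log2 fold change 0.12), and 5, each higher, under anti-Dll4 (median 0.33), where 14.0% and 14.7% of all genes were higher. The share of the list called higher was thus below that of all genes under IgG and near it under anti-Dll4. The 3 under IgG included Ccne1 and Ccne2, the cyclins E that drive histone gene transcription at the start of S phase. Slbp was at 412.4 ± 35.62 CPM in Kit+ CD45-, 326.9 ± 46.39 in Kit- CD41+ CD45- and 284.8 ± 36.62 CPM in Kit+ CD45+ IgG libraries (mean ± SD, n = 4). It was lower in Kit+ CD45+ than in Kit+ CD45- under IgG, with a log2 fold change of -0.53 (SE 0.13, adjusted p = 0.00431), and under anti-Dll4, at -0.44 (SE 0.13, adjusted p = 0.0121). Its difference between Kit+ CD45- and Kit- CD41+ CD45- missed the threshold under both antibodies, at 0.34 and 0.33 (adjusted p = 0.0526 and 0.0516). For Kit+ CD45+ against Kit+ CD45-, 5 of the 31 were called under IgG (median -0.03) and 4 under anti-Dll4 (median -0.21), each lower. Against Kit- CD41+ CD45-, Kit+ CD45+ had 2 higher and 2 lower under IgG (median 0.03) and 2 lower under anti-Dll4 (median 0.15).

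Histone chaperones carry histones to DNA. Of 25, 6 were higher and 1 lower in Kit+ CD45- than in Kit- CD41+ CD45- cells under IgG (median 0.24), and 10 and 1 under anti-Dll4 (median 0.35), beside 27.9% and 29.9% of all genes called in either direction. The 7 calls under IgG were thus at the share of all genes. Nasp, a chaperone of H1 and of H3 with H4, was among them, at 0.75 (SE 0.12, adjusted p = 6.42e-05) under IgG. Between Kit+ CD45+ and Kit+ CD45-, 4 were called under IgG, each lower (median -0.04), and 1 was higher and 4 lower under anti-Dll4 (median -0.19). Both Asf1 genes were lower there under IgG, Asf1a at -0.89 (SE 0.17, adjusted p = 0.000457) and Asf1b at -0.69 (SE 0.17, adjusted p = 0.00540). Kit+ CD45+ against Kit- CD41+ CD45- gave 7 higher and 3 lower under IgG and 6 and 3 under anti-Dll4.

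Replication-independent histone variants, most of whose mRNAs are polyadenylated, gave 1 to 6 calls among the 11 tested in the single population comparisons. These called 19.2% to 37.6% of all genes. The antibody comparisons gave 0 calls. Of the 11, 1 was called, lower in Kit+ CD45- than in Kit- CD41+ CD45- cells, under IgG (median 0.23), and 2 were higher and 1 lower under anti-Dll4 (median 0.19). The lower one under IgG was H3f3b, a gene for the variant H3.3, at 2408 ± 79.05 CPM in Kit- CD41+ CD45- and 1314 ± 111.0 CPM in Kit+ CD45- IgG libraries, a log2 fold change of -0.87 (SE 0.12, adjusted p = 3.68e-06). Kit+ CD45+ against Kit+ CD45- gave 1 higher and 1 lower under IgG (median -0.24) and 2 and 1 under anti-Dll4 (median 0.04), and Kit+ CD45+ against Kit- CD41+ CD45- gave 2 and 4 (median -0.14) and 2 and 2 (median -0.15). H2afy, which encodes macroH2A1, was higher in Kit+ CD45+ than in Kit+ CD45- under IgG, at 0.89 (SE 0.26, adjusted p = 0.0172).

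Genes of DNA replication are transcribed in the same phase as the members. Of 49 genes of S phase and DNA replication, 20 were higher and 1 lower in Kit+ CD45- than in Kit- CD41+ CD45- cells under IgG, with a median of 0.41, and 23 and 1 under anti-Dll4, with a median of 0.49, where 14.0% and 14.7% of all genes were higher. Between Kit+ CD45+ and Kit+ CD45- 7 were called under IgG, each lower (median -0.16), and 1 was higher and 14 lower under anti-Dll4 (median -0.26), where 9.18% and 12.6% of all genes were lower. Pcna, the sliding clamp of DNA polymerase, was at 193.2 ± 17.36 CPM in Kit+ CD45-, 146.0 ± 24.65 in Kit- CD41+ CD45- and 140.3 ± 15.16 CPM in Kit+ CD45+ IgG libraries. Its log2 fold change was 0.40 (SE 0.13, adjusted p = 0.0219) for Kit+ CD45- against Kit- CD41+ CD45- and -0.46 (SE 0.13, adjusted p = 0.0138) for Kit+ CD45+ against Kit+ CD45-. In Kit+ CD45+ against Kit- CD41+ CD45- the list gave 9 higher and 1 lower under each antibody (medians 0.14 and 0.15).

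Of 31 genes of G2 and mitosis, 15 were called under IgG (median 0.46) and 18 under anti-Dll4 (median 0.52), each higher in Kit+ CD45- than in Kit- CD41+ CD45- cells. Of all genes 14.0% and 14.7% were higher there. Mki67, a marker of cycling cells, was at 133.3 ± 17.8 CPM in Kit+ CD45-, 80.5 ± 8.628 in Kit- CD41+ CD45- and 55.88 ± 9.438 CPM in Kit+ CD45+ IgG libraries. Kit+ CD45+ against Kit+ CD45- gave 5 calls under IgG (median -0.22) and 14 under anti-Dll4 (median -0.27), each lower, where 9.18% and 12.6% of all genes were lower. Kit+ CD45+ against Kit- CD41+ CD45- gave 11 higher and 2 lower under IgG (median 0.16), where 19.7% and 17.5% of all genes were called. Under anti-Dll4 it gave 7 and 3 (median 0.12), beside 20.4% and 17.3%. These lists were chosen with earlier results in view, so their counts are descriptions. Hist1h1c, Hist1h2bc, Hist3h2a and Hist1h4h stood highest in the population where Pcna and Mki67 were lower than in Kit+ CD45- cells, whereas Hist1h3c stood highest in the population where both were highest. Under IgG, Kit+ CD45+ cells had the lowest mean Pcna (140.3 CPM) and Mki67 (55.88 CPM), and Hist1h1c and Hist1h2bc were also lowest there. Pcna was close to its 146.0 ± 24.65 CPM in Kit- CD41+ CD45- IgG libraries, however. Both lists leaned the other way in Kit+ CD45+ against Kit- CD41+ CD45- under IgG. There 9 S phase genes were called higher and 1 lower, and 11 and 2 of G2 and mitosis. Hist3h2a was lowest on average in Kit+ CD45- cells, and Hist1h4h was at like levels in both Kit+ populations. How these levels relate was not tested.

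Further marker lists also differed between the populations, beside the members. Of 12 primordial germ cell markers tested, which include the sorted marker Kit, 11 were higher in Kit+ CD45- than in Kit- CD41+ CD45- cells under IgG, and their sum ran from 107.6 to 642.2 CPM in Kit+ CD45-, 6.672 to 14.88 in Kit- CD41+ CD45- and 56.65 to 93.94 CPM in Kit+ CD45+ libraries, with Pou5f1, Rhox6 and Rhox9 at 0 in all Kit+ CD45+ libraries. The 15 endothelial markers summed to 694.6 to 2697 CPM in Kit+ CD45-, 412.0 to 727.2 in Kit- CD41+ CD45- and 2245 to 3169 CPM in Kit+ CD45+ libraries. The 15 macrophage markers summed to 455.2 to 3629 CPM in Kit+ CD45+ libraries and to at most 133.2 CPM in the others, and granulocyte and monocyte progenitor markers to 429.1 to 949.6 CPM against 40.1 to 95.19 CPM. Of the erythroid markers, 13 of 14 tested were higher in Kit+ CD45- than in Kit- CD41+ CD45- cells under IgG and 14 of 14 were lower in Kit+ CD45+ than in Kit+ CD45- cells. The part of these cell types in the histone differences was not tested.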

How the data were processed

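Raw counts per gene were deposited by the authors as whole numbers, beside a log2 table that the authors made from them: its values equalled log2 of the count divided by a size factor (0.4544 to 1.56) plus 1, within 5.2e-14. That log2 table supplied gene names and types. The submitters' processing notes name CASAVA 1.4, FastQC, STAR, HTSeq, DESeq2 and build mm10; annotation release and strand handling were not given in these sources. 1 column of the tables matched no labelled library and was not used.

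From the deposited counts, edgeR 4.0.16 (R 4.3.3) was run on all 24 libraries with TMM scaling, filterByExpr by group (15618 of 29716 genes kept), a robust quasi-likelihood fit with 1 coefficient per group and 18 residual degrees of freedom. p-values were adjusted by Benjamini-Hochberg over all tested genes within each comparison, and a call needs an adjusted p under 0.05. The SE is the absolute log2 fold change divided by the square root of F. Comparisons were between populations under each antibody, between antibodies in each population, their mean, and their difference between populations. DESeq2 1.42.0, upper-quartile scaling, no filter, removal of globin genes, blocks and left-out libraries were alternatives. The fit was tested on simulated data.

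Of the 62 members, 60 were matched to GENCODE M21 by identifier and 2 by symbol. Stem-loops and word uniqueness come from its transcripts, and promoters from RefSeq (GRCm38.p6). The members and gene lists were chosen with earlier results of these data known. Named are the 3 members of each type with the highest level per length, called members (up to 8 by p per direction and comparison), and H1 genes averaging at least 1 CPM in a group. pandas 2.3.3, numpy 2.4.6 and matplotlib 3.10.9 made summaries and plots.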

Additional observations from a re-analysis of the deposited data

Results flagged for a closer look

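In groups of 4 libraries, 5 of 174 groups checked had a highest or lowest library whose gap to the nearest one exceeded Dixon's critical share of the group's range, where chance alone gives about 1 in 20. Hist1h2be was at 3.966 CPM in Kit+ CD45- IgG replicate 1, against 1.777 to 2.14 CPM in the other 3 libraries. Hist1h4h was at 3.717 CPM in Kit+ CD45- anti-Dll4 replicate 4, against 1.199 to 1.503 CPM. Hist1h3d was at 2.705 CPM in Kit- CD41+ CD45- IgG replicate 3, below the other 3 at 4.604 to 4.876 CPM. Summed H3 stood at 19.99 CPM in Kit+ CD45+ IgG replicate 4, against 12.56 to 13.64 CPM. Hist2h4 was at 1.464 CPM in Kit+ CD45+ IgG replicate 1, against 0.8963 to 0.99 CPM.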

How the results depend on the processing

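Leaving out 1 library at a time gave 5 to 9 called members in Kit+ CD45- against Kit- CD41+ CD45- under IgG and 5 to 9 under anti-Dll4, 3 to 8 in Kit+ CD45+ against Kit+ CD45- under IgG and 4 to 11 under anti-Dll4, 6 to 6 in Kit+ CD45+ against Kit- CD41+ CD45- under IgG and 4 to 5 under anti-Dll4, and 0 to 0 in each of the 5 antibody results. With no filter on low counts, the calls were 4 in Kit+ CD45+ against Kit+ CD45- under IgG, 6 in Kit+ CD45- against Kit- CD41+ CD45- under anti-Dll4 and 5 in Kit+ CD45+ against Kit+ CD45- under anti-Dll4, and the cause was not tested. Leaving out the 3 Y-linked libraries, an alternative chosen after seeing the data, gave 5 in the last of these. DESeq2 called 10, 7, 7, 11, 9 and 6 members in the 6 population comparisons, where edgeR called 7, 7, 6, 10, 9 and 4, in the order Kit+ CD45- against Kit- CD41+ CD45-, Kit+ CD45+ against Kit+ CD45- and Kit+ CD45+ against Kit- CD41+ CD45-, first under IgG and then under anti-Dll4. DESeq2 was run without edgeR's filter. Over the 41 members that passed it, DESeq2 called 3 higher and 6 lower in the first comparison and 5 lower in the last. Of 17591 to 19310 genes with an adjusted p, DESeq2 called 4766, 3396, 6264, 5145, 5014 and 6281 in the same order. Without globin genes the library sizes and TMM factors were recomputed, so the same histone counts were put on another scale. The summed histone level was then 810.1 CPM in Kit- CD41+ CD45- anti-Dll4 libraries (688.2 in the main fit). In Kit+ CD45+ anti-Dll4 libraries it was 343.1 CPM (298.2 in the main fit). Without members under 50% unique words it was 239.4 CPM in Kit+ CD45+ anti-Dll4 libraries. Without Hist1h2bc and Hist1h1c, chosen after seeing the data, it was 282.8, 253.7, 247.8, 174.8 and 212.4 CPM in Kit+ CD45- IgG, Kit- CD41+ CD45- IgG, Kit- CD41+ CD45- anti-Dll4, Kit+ CD45+ IgG and Kit+ CD45+ anti-Dll4 libraries.

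Same-numbered libraries did not deviate together in every pair (r from -0.22 to 0.14 between antibodies and from -0.12 to 0.28 between populations), and the main fit did not take the numbers as pairs. These values do not show that such libraries are independent. Between populations under anti-Dll4, r was 0.07 to 0.28 for replicates 1, 2 and 3 in every pair. If same-numbered libraries of an antibody share embryos, the main p-values ignore that pairing. Among the anti-Dll4 libraries all 3 of replicate 1, and no others, held Y-linked counts above 15, and whether same-numbered libraries share embryos is not given in the sources used here. With the replicate number as a block, 7, 7, 7, 11, 7 and 4 members were called in the same order, and 0 in each antibody result. With the number within each antibody as the block the counts were 9, 8, 6, 7, 8 and 5. Depth limited the 21 members that were not tested, which had at most 153 counts each over 24 libraries.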
